A study of Mus musculus with 24 samples.

Results

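A set of 10 homeobox transcription factors of the suprachiasmatic nucleus (SCN) and the surrounding hypothalamus were followed across SCN regions and after a light pulse: Lhx1, Lhx2, Six3, Six6, Zfhx3, Dlx1, Dlx2, Dlx5, Dlx6 and Otp. They were chosen by gene symbol, 10 of the 18193 genes named on the array, and are measured by 19 of its 45101 probe sets; of several probe sets for a gene, the one with the highest mean on the 24 arrays leads. The groups are light-pulsed ventral, central and dorsal SCN and sham-treated ventral, central and dorsal SCN of C57BL/6 mice, with 4 arrays in each of the 6 groups. All mice, sham animals included, were bought at 8 weeks of age and had spent at least 7 days in constant dim red light; pulsed mice then received 30 min of phase-advancing light, and every SCN was collected 3.5 h after pulse or sham. The regions were cut by laser microdissection from haematoxylin-stained coronal sections of 25 µm, and their RNA was amplified in 2 batches, with replicates 1 and 2 in batch A and replicates 3 and 4 in batch B. The labels do not tie arrays to animals, so p-values measure the spread between these samples, and arrays of different regions may share an animal.

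Homeobox genes encode transcription factors that bind DNA through a homeodomain and lay down cell identity in the developing brain. Six3 and Six6, members of the sine oculis family, and the LIM-homeodomain factors Lhx2 and Lhx1 act in the developing anterior hypothalamus, and in the mouse Six3, Six6 and Lhx2 are needed for an SCN to form, while Lhx1 is needed for the neuropeptides that couple its neurons. Zfhx3, a giant protein with zinc fingers and several homeodomains, stays on in adult SCN neurons and sets the pace of the clock. Dlx1, Dlx2, Dlx5 and Dlx6, relatives of the fly gene Distal-less that lie as linked pairs in the genome, drive the GABA neuron programme, and SCN neurons are GABAergic. Otp specifies neuroendocrine neurons in hypothalamic nuclei around the SCN, such as the paraventricular nucleus.

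Promoters of the genes with the clearest regional differences are shown for context, 250 bases before to 50 after the start site, from RefSeq on build GRCm38.p6. Dlx1 lies on the plus strand (chr2:71529195-71529494), Dlx2 on the minus strand (chr2:71546705-71547004) and Lhx1 on the minus strand (chr11:84525485-84525784). Capitals mark CACGTG, the E-box read by the clock's CLOCK and BMAL1, and TGACG, the core of the element read by CREB, searched on both strands.
Dlx1: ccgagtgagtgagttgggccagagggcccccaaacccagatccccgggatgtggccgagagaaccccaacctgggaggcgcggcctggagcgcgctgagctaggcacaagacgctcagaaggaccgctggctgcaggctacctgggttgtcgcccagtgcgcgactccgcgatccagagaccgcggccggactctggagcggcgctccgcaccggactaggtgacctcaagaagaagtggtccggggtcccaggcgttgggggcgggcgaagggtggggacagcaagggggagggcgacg
Dlx2: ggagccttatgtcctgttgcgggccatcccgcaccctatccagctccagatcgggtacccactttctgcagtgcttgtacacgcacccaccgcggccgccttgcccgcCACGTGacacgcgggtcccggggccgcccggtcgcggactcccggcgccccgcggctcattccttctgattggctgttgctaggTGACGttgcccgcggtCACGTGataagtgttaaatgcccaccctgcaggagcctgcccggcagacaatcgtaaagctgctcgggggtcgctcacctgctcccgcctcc
Lhx1: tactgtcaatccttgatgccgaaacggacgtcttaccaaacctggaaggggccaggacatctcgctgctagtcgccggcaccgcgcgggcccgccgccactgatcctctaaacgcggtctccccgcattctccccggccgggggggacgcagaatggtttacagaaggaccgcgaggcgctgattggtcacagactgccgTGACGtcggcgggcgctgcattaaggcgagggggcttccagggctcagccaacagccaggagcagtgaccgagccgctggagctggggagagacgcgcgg
Dlx2 holds CACGTG 2 times, as do 7.15% of all 32851 promoter windows at least once, and Dlx2 and Lhx1 each hold TGACG, found in 20.8% of windows, while neither motif is in the Dlx1 window. The full CREB element TGACGTCA, which overlaps TGACG and occurs in 1.79% of windows, and the homeodomain core TAATTA, in 5.29%, are in no window of the 8 members that have one. A match is a description of the letters, not of a bound site. In the RefSeq annotation Dlx1 and Dlx2 are neighbours on chromosome 2 with 9426 bases between them, and Dlx5 and Dlx6 on chromosome 6 with 9830 bases between them.

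The values are log2 expression values as deposited, and the batches are not on one scale. The median of an array was 3.52 to 3.62 in batch A, but 4.81 to 5.07 in batch B, so levels are compared within a batch or with batch as a term. SCN markers such as Vip, Avp and Grp were detected, and they separated the regions in part. In the fit described next, 8 SCN marker genes were tested, among them the members Lhx1 and Six6. Of these 8, 2 were higher and 1 lower in ventral than in dorsal SCN. Against central SCN, 0 were higher and 2 lower in ventral SCN, and 3 were higher and 1 lower in central than in dorsal SCN. Vip was higher in ventral than in dorsal SCN by 3.43 ± 0.298 on the log2 scale (SE; adjusted p = 9.97e-08), and Avp lower (-1.43 ± 0.249, adjusted p = 0.00074). Marker genes of glia and vessels also differed: the mean log2 level of 7 oligodendrocyte genes was 7.75 to 8.50 in ventral, 5.16 to 6.03 in central and 6.46 to 7.02 in dorsal SCN in batch A, with the same order and no overlap in batch B. In the test 7 of 7 oligodendrocyte genes were higher in ventral than in central SCN and 6 of 7 higher in ventral than in dorsal SCN; of 8 astrocyte genes, 5 and 3 were. Of 7 endothelial and mural genes, 3 were higher in ventral than in central SCN and 3 lower in central than in dorsal SCN. The 7 neuron genes gave no call between ventral and central SCN and 1 lower call, Syt1, for ventral and for central against dorsal SCN. The part of these cell types in the differences described here was not tested. One array stood apart in batch B: light-pulsed dorsal replicate 4 had a Gapdh signal 5.41 log2 units higher at the 3′ than at the 5′ probe set, against 0.887 to 1.07 on the other 11 arrays of that batch, and a median correlation of 0.913 with its batch. On the 12 batch A arrays that Gapdh difference was 2.02 to 3.28, steeper than on those 11 batch B arrays. In batch A, light-pulsed central replicate 2 had the lowest median correlation, 0.955.

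Of the 10 genes, 9 were tested. A gene entered the fit if its value was above 4 on at least 4 arrays, which Dlx1, Dlx2, Dlx5, Dlx6, Lhx1, Six3, Six6, Zfhx3 and Otp did. Lhx2 did not: its single probe set read 2.53 to 2.97 on the 12 batch A arrays and 2.79 to 4.11 on the 12 batch B arrays, above 4 on 1 array only, light-pulsed dorsal replicate 4, which is the one that stands apart. The probe set lay below the median of its array on all 24 arrays, at percentiles from 2.2 to 35.7, so a level of Lhx2 in this tissue was not detectable here and no comparison was made. The plot of values by array gives every member.

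**Figure D1:**
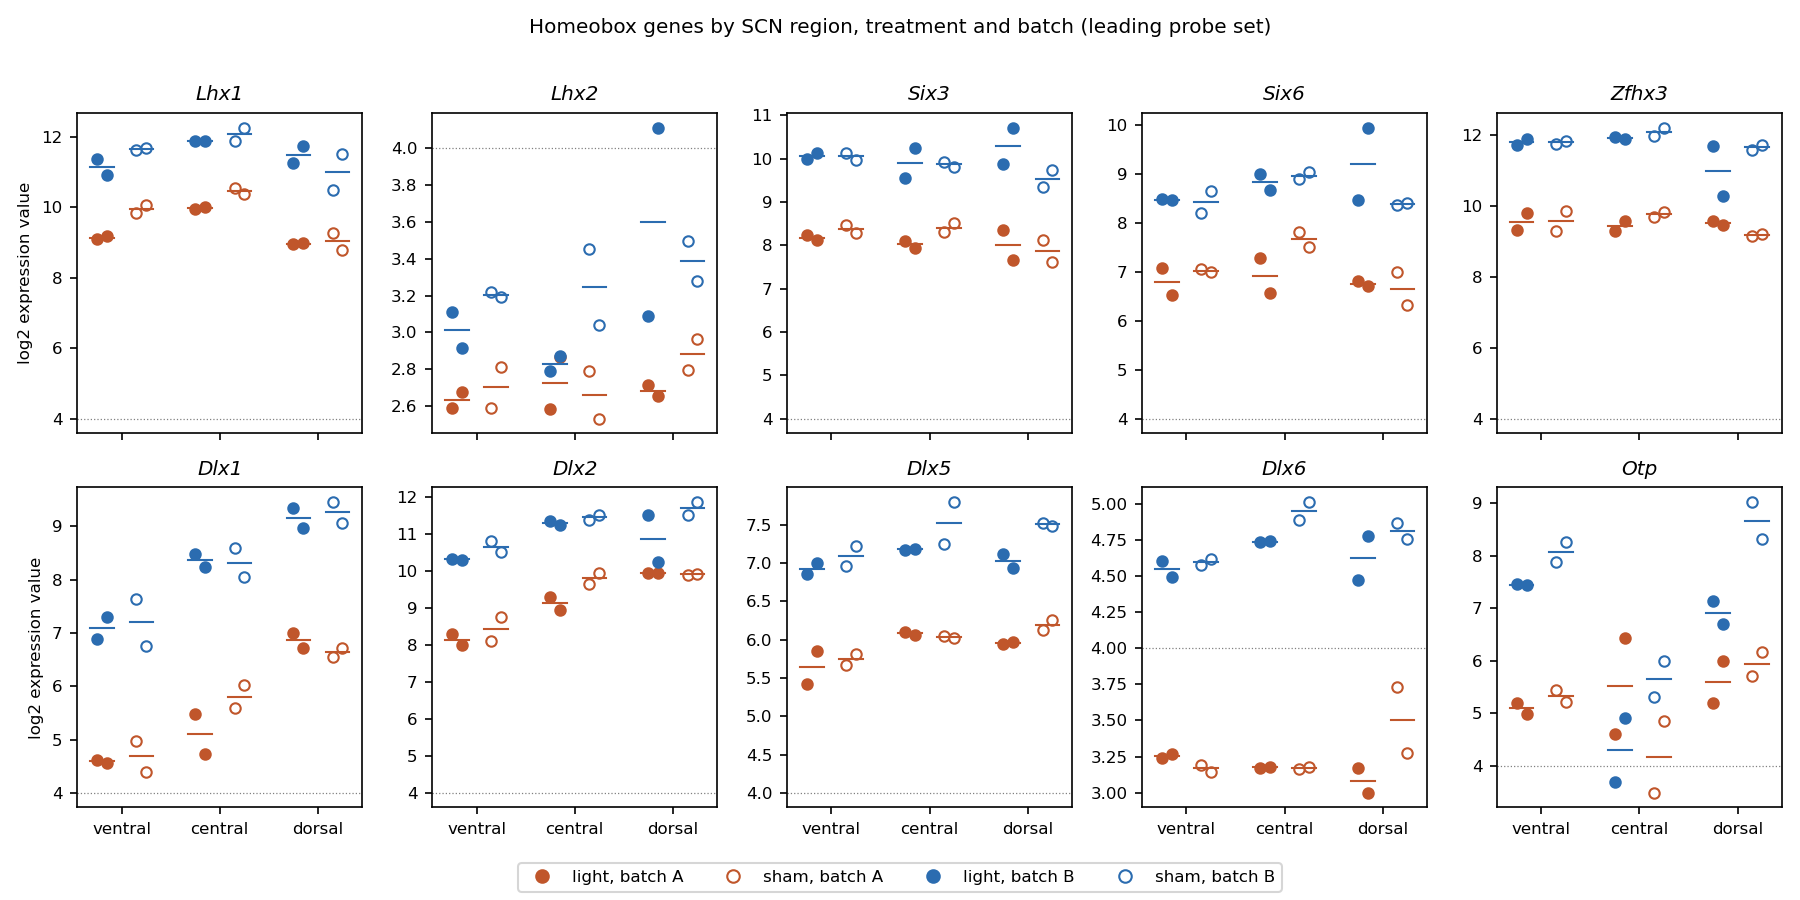
Log2 expression value (y axis, its own range in each panel) of the leading probe set of each gene on each array, by SCN region (x axis). Filled points are light-pulsed and open points sham arrays, orange batch A and blue batch B, short lines are means of the 2 arrays of a group and batch, and the dotted line is the filter level of 4. Dlx1 is lowest in ventral and highest in dorsal SCN in both batches, Lhx1 is highest in central SCN, and Otp in batch B is lowest in central SCN.

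The first comparison was between regions, over light and sham arrays together (8 against 8), with limma, batch as a term and Benjamini-Hochberg adjustment over the 13494 genes tested. Of 9 members, 4 were lower in ventral than in central SCN (Dlx1, Dlx2, Dlx5 and Lhx1) and 1 was higher (Otp); 2 were lower in ventral than in dorsal SCN (Dlx1 and Dlx2); and in central against dorsal SCN 1 was higher (Lhx1) and 2 were lower (Dlx1 and Otp). Over all genes the same test called 5.2% between ventral and central SCN (4.36% higher and 0.845% lower), 4.61% between ventral and dorsal SCN (1.98% lower) and 7.11% between central and dorsal SCN (1.96% higher and 5.14% lower). The median difference of the 9 members was -0.35, -0.11 and 0.03 for these comparisons in turn, against 0.05, 0.01 and -0.05 over all genes tested. In dissected tissue fewer cells of a type and less RNA per cell cannot be told apart.

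Dlx1 followed a gradient, lowest in ventral and highest in dorsal SCN. In batch A it read 4.63 and 4.55 (light) and 4.97 and 4.39 (sham) in ventral SCN, 5.49 and 4.73 (light) and 5.59 and 6.02 (sham) in central SCN, and 7.0 and 6.72 (light) and 6.56 and 6.71 (sham) in dorsal SCN. In batch B the values were 6.90 and 7.29 (light) and 7.63 and 6.76 (sham) in ventral, 8.48 and 8.25 (light) and 8.60 and 8.04 (sham) in central, and 9.34 and 8.97 (light) and 9.46 and 9.07 (sham) in dorsal SCN. Ventral and dorsal arrays did not overlap in either batch, and the single overlap between neighbouring regions was that of ventral and central SCN in batch A. Dlx1 was 4.25-fold lower in ventral than in dorsal SCN (log2 difference -2.09 ± 0.164 SE, adjusted p = 3.51e-08), with -2.11 in batch A and -2.06 in batch B. The central region lay between: ventral was below central by 2.01-fold (-1.01 ± 0.164, adjusted p = 0.000321) and central below dorsal by 2.11-fold (-1.08 ± 0.164, adjusted p = 0.00015). All 3 calls remained without any 1 of the 16 arrays of their regions. In single batches the ventral against central call was lost (adjusted p = 0.103 in batch A and 0.0517 in batch B). The central against dorsal call was lost in batch B alone (adjusted p = 0.125).

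Dlx2, its neighbour on chromosome 2, was also low in ventral SCN, but central and dorsal SCN were not told apart. In the order of replicates 1 to 4, it read 8.29, 7.99, 10.33 and 10.31 after light and 8.10, 8.76, 10.81 and 10.51 after sham in ventral SCN. In central SCN it read 9.31, 8.94, 11.35 and 11.25 after light and 9.66, 9.96, 11.39 and 11.52 after sham, and in dorsal SCN 9.96, 9.95, 11.51 and 10.25 after light and 9.90, 9.93, 11.53 and 11.87 after sham. No ventral array reached the level of a central array of its batch, and the one dorsal array as low as the ventral ones was the light-pulsed replicate 4 that stands apart. Dlx2 was 2.34-fold lower in ventral than in dorsal SCN (-1.22 ± 0.185, adjusted p = 0.00015; -1.65 in batch A and -0.80 in batch B) and 2.05-fold lower in ventral than in central SCN (-1.04 ± 0.185, adjusted p = 0.000905). Both calls were lost in batch B alone, with adjusted p of 0.299 against dorsal and 0.190 against central SCN. The central minus dorsal difference was -0.19 ± 0.185 (95% interval -0.57 to 0.20, adjusted p = 0.621). Without light-pulsed dorsal replicate 4 it was -0.38 (adjusted p = 0.0652), and the ventral minus dorsal difference was -1.42 (adjusted p = 1.24e-07).

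**Figure D2:**
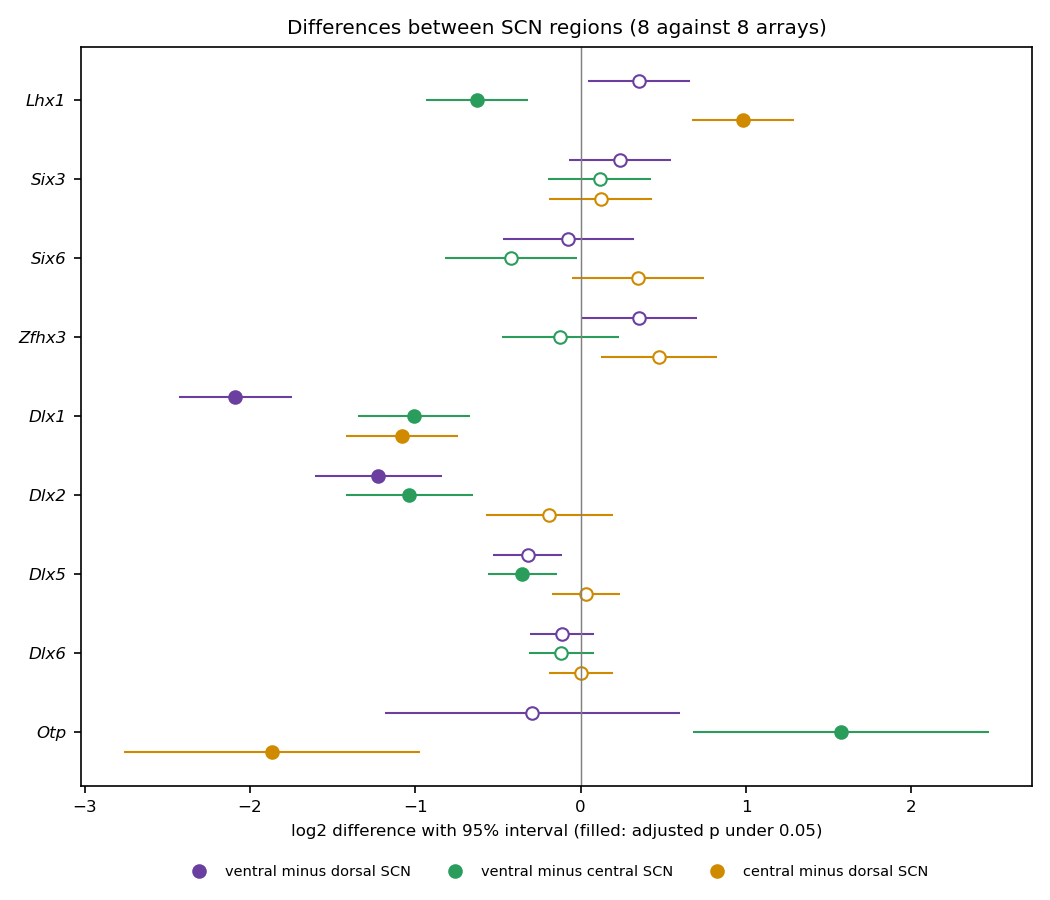
Log2 difference between regions (x axis, with 95% interval) for the 9 genes tested (y axis), from the fit with batch as a term over 24 arrays. Purple is ventral minus dorsal, green ventral minus central and orange central minus dorsal SCN; filled points have an adjusted p under 0.05. Dlx1 and Dlx2 lie left of 0 for both ventral comparisons, and Lhx1 and Otp lie on opposite sides of 0 for central SCN.

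Dlx5 and Dlx6, the pair on chromosome 6, had smaller differences. In batch A Dlx5 ranged over 5.42 to 5.86 in ventral, 6.03 to 6.10 in central and 5.95 to 6.26 in dorsal SCN, and in batch B over 6.86 to 7.22, 7.17 to 7.80 and 6.94 to 7.53. It was 1.28-fold lower in ventral than in central SCN (-0.35 ± 0.10, adjusted p = 0.0406), a call that ended when any 1 of 11 of the 16 ventral and central arrays was left out: light ventral replicates 1, 3 and 4, light central replicates 1 to 4, sham ventral replicates 1 to 3 and sham central replicate 4. The adjusted p was then up to 0.110. The ventral minus dorsal difference of Dlx5 was -0.32 ± 0.10 with an adjusted p of 0.0762, which was 0.0304 without light-pulsed dorsal replicate 4. Dlx6 read 3.0 to 3.73 on batch A arrays and 4.48 to 5.02 on batch B arrays, close to or below the array medians, and its differences between regions were between -0.12 and 0.00 with no call; Dlx6os1 and Dlx6os2, transcripts that overlap Dlx6 in the annotation, did not enter the fit.

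**Figure D3:**
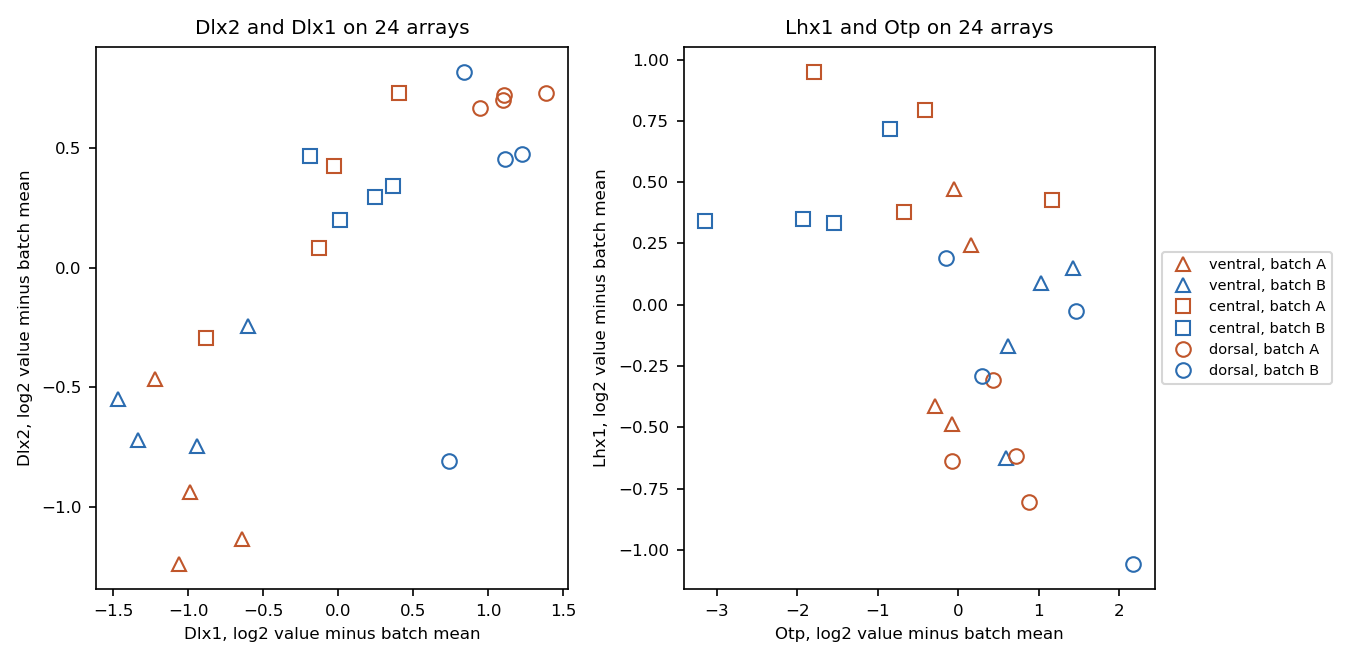
Log2 value minus the mean of its batch on the 24 arrays for Dlx2 against Dlx1 (left) and Lhx1 against Otp (right). Triangles are ventral, squares central and circles dorsal arrays, orange batch A and blue batch B. Dlx1 and Dlx2 are low together in ventral SCN (r = 0.78 over 24 arrays), with light-pulsed dorsal replicate 4 at the lower right. Lhx1 is high on the central arrays, on most of which Otp is low (r = -0.55). The exception is light-pulsed central replicate 2, which has the highest Otp value of batch A.

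Lhx1, the LIM factor of the mature SCN, peaked in the central region. In batch A it read 9.10 and 9.17 (light) and 9.83 and 10.06 (sham) in ventral, 9.96 and 10.02 (light) and 10.54 and 10.38 (sham) in central, and 8.95 and 8.97 (light) and 9.28 and 8.78 (sham) in dorsal SCN. In batch B it read 11.38 and 10.92 (light) and 11.63 and 11.70 (sham) in ventral, 11.89 and 11.90 (light) and 11.88 and 12.26 (sham) in central, and 11.25 and 11.74 (light) and 10.49 and 11.52 (sham) in dorsal SCN. Every central array was above every dorsal array of its batch. Lhx1 was 1.97-fold higher in central than in dorsal SCN (0.98 ± 0.149, adjusted p = 0.00015; 1.23 in batch A and 0.73 in batch B) and 1.55-fold lower in ventral than in central SCN (-0.63 ± 0.149, adjusted p = 0.0118), and both calls remained without any 1 array. The ventral against central call was lost in sham arrays alone (-0.46, adjusted p = 0.596) and in each batch alone (adjusted p = 0.0566 in batch A and 0.551 in batch B), and the central against dorsal call in batch B alone (adjusted p = 0.21). Ventral and dorsal SCN were not separated (0.35 ± 0.149, 95% interval 0.04 to 0.66, adjusted p = 0.253).

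The second Lhx1 probe set gave the same order. In the fit over 25067 probe sets it was higher in central than in dorsal SCN by 1.98 ± 0.388 (adjusted p = 0.0028), and its ventral minus central difference was -0.88 ± 0.388 (adjusted p = 0.375). After light it read 4.75 on dorsal replicate 4 and 8.65 on dorsal replicate 3 of the same batch, while the leading probe set read 11.7 and 11.3 there; over 24 arrays the correlation of the probe sets was 0.51, and 0.91 without the 2 arrays named above. Lhx1os, a transcript annotated 125 bases from Lhx1, was among the 3 genes most like Lhx1 and was also higher in central than in dorsal SCN, by 1.02 (adjusted p = 0.00382).

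Six3, Six6 and Zfhx3 gave no call between regions with their leading probe sets. In batch A Six3 read 8.11 to 8.46 in ventral, 7.94 to 8.51 in central and 7.62 to 8.35 in dorsal SCN, and in batch B 9.97 to 10.14, 9.56 to 10.25 and 9.35 to 10.72. The groups overlapped throughout, and its 3 regional differences lay between 0.12 and 0.24, with 95% intervals from -0.19 to 0.55. Another Six3 probe set had a larger ventral minus dorsal difference, 1.0 ± 0.349, which did not pass among probe sets (adjusted p = 0.162). Its lowest batch B dorsal value was 5.83, against a median of 8.58 on those arrays. Six3os1, which overlaps Six3 by 4789 bases in the annotation, was higher in ventral than in dorsal SCN by 0.83 (adjusted p = 0.00102) and higher in central than in dorsal SCN by 0.61 (adjusted p = 0.0125).

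Six6 read 6.52 to 7.07 in ventral, 6.55 to 7.81 in central and 6.33 to 6.98 in dorsal SCN in batch A. In batch B it read 8.20 to 8.64 in ventral, 8.67 to 9.03 in central and 8.36 to 9.94 in dorsal SCN, where 9.94 was light-pulsed replicate 4 and the other 3 arrays were between 8.36 and 8.46. Its central minus dorsal difference was 0.35 ± 0.192 (adjusted p = 0.343), and 0.54 without that array (adjusted p = 0.012), which then passed the test. Ventral minus central was -0.42 ± 0.192 (adjusted p = 0.338), and -0.42 with an adjusted p of 0.0483 when that dorsal array was left out of the fit.

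Zfhx3 read 9.30 to 9.87 in ventral, 9.29 to 9.84 in central and 9.15 to 9.58 in dorsal SCN in batch A, and 11.74 to 11.89, 11.89 to 12.22 and 10.28 to 11.73 in batch B. The 10.28 was again light-pulsed dorsal replicate 4. Its central minus dorsal difference was 0.48 ± 0.17 (adjusted p = 0.101), and 0.29 without that array (adjusted p = 0.0855). The difference was positive for each of its 6 probe sets, from 0.21 to 0.61, and 1 of them passed the test among probe sets, with 0.61 ± 0.176 (adjusted p = 0.0486).

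**Figure D4:**
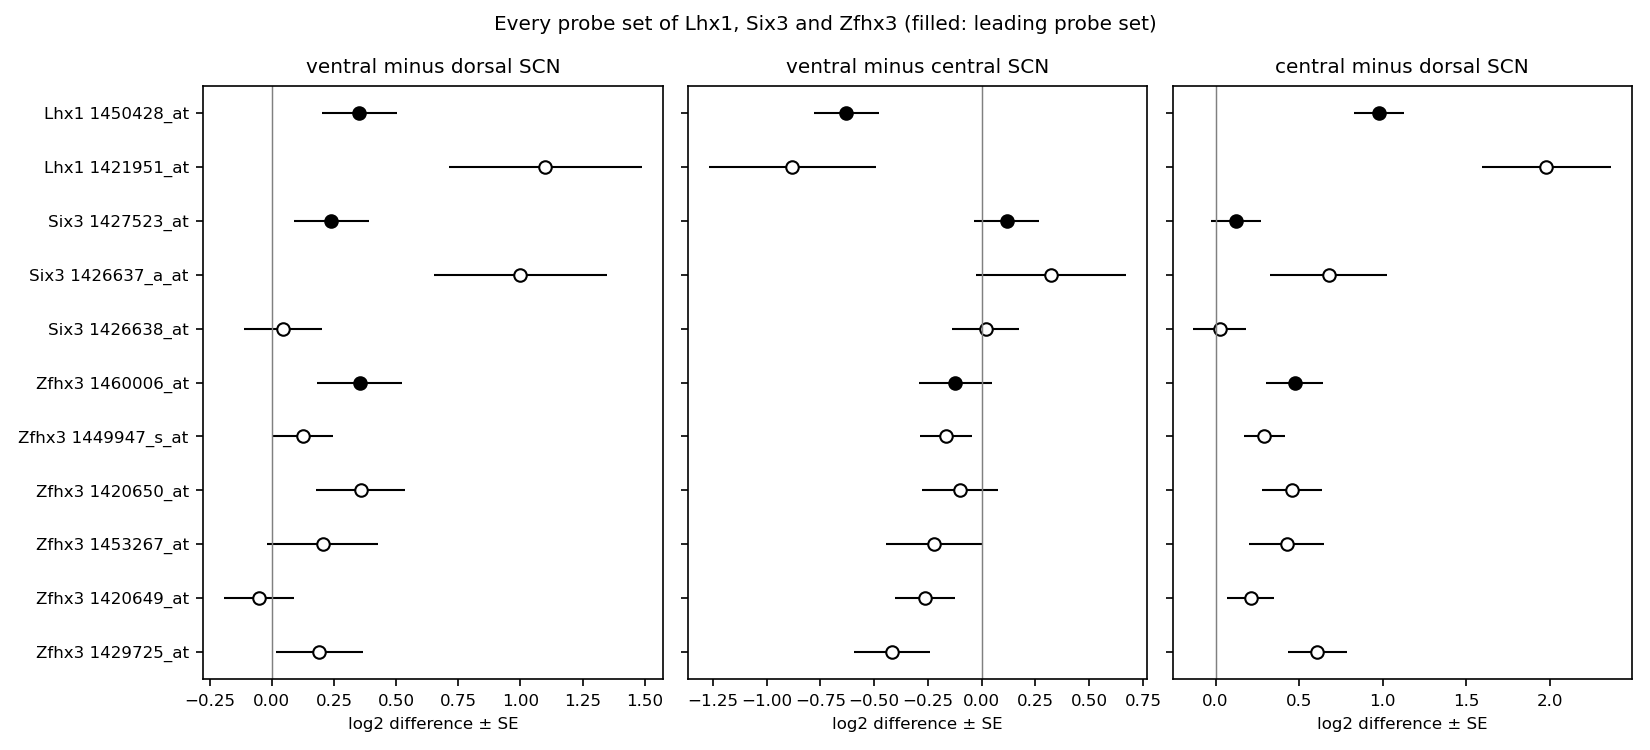
Log2 difference between regions (x axis, with its SE) for every probe set of Lhx1, Six3 and Zfhx3 (y axis), from the fit over all probe sets; each panel is one pair of regions and filled points are the leading probe sets. All 6 Zfhx3 and both Lhx1 probe sets lie right of 0 for central minus dorsal SCN, and the Six3 probe sets lie between 0.03 and 0.68.

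Otp was lowest in the central region, chiefly in batch B. In batch A it read 5.20 and 4.99 (light) and 5.44 and 5.22 (sham) in ventral, 4.60 and 6.44 (light) and 3.48 and 4.86 (sham) in central, and 5.20 and 6.0 (light) and 5.71 and 6.16 (sham) in dorsal SCN. In batch B it read 7.46 and 7.44 (light) and 7.88 and 8.27 (sham) in ventral, 3.70 and 4.91 (light) and 5.30 and 6.0 (sham) in central, and 7.14 and 6.69 (light) and 9.02 and 8.31 (sham) in dorsal SCN. The central arrays lay below all ventral and dorsal arrays in batch B, while in batch A the light-pulsed central replicate 2, at 6.44, was above them all. Otp was 3.65-fold lower in central than in dorsal SCN (-1.87 ± 0.431, adjusted p = 0.0077; -0.92 in batch A and -2.81 in batch B), and the call remained without any 1 array. It was 2.98-fold higher in ventral than in central SCN (1.57 ± 0.431, adjusted p = 0.0325; 0.37 in batch A and 2.78 in batch B). That second call ended without light ventral replicate 3 or 4, light central replicate 3 or 4, sham ventral replicate 3 or 4, or sham central replicate 1 or 3, with adjusted p from 0.068 to 0.0797. In batch A alone both Otp calls were lost, with adjusted p of 0.466 for central against dorsal and 0.947 for ventral against central SCN. The ventral against central call was also lost in sham arrays alone (adjusted p = 0.249). Without light-pulsed central replicate 2 the adjusted p was 0.000135 for central against dorsal and 0.000669 for ventral against central SCN. The other Otp probe set stayed between 2.70 and 3.99 on all arrays and was not tested.

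Genes of neurons that Otp specifies, or that lie around the SCN, were read beside it from a list of 17, of which 11 were tested. Of these, 5 were lower in central than in dorsal SCN and none higher, and 3 were higher in ventral than in central SCN. Another comparison, ventral against dorsal SCN, had 2 lower and none higher. Over all genes the shares were 5.14% lower in central than in dorsal, 4.36% higher in ventral than in central and 1.98% lower in ventral than in dorsal SCN. Trh, the thyrotropin-releasing hormone gene, was lower in central than in dorsal SCN (-1.92 ± 0.266, adjusted p = 4.64e-05) and higher in ventral than in central SCN (1.87 ± 0.266, adjusted p = 7.38e-05). Oxt, the oxytocin gene, was lower in central than in dorsal SCN by 2.29 (log2 difference -2.29, adjusted p = 0.00232). Slc17a6, the glutamate transporter VGLUT2 of excitatory neurons, was among the 3 genes most like Otp (r = 0.89) and lower in central than in dorsal SCN (-1.23 ± 0.354, adjusted p = 0.0361). Whether neurons of adjoining nuclei in the cut pieces take part in the Otp difference was not tested.

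Likeness was described by the correlation with each gene over the 24 arrays after the batch mean was removed, which regional differences and shared arrays feed. Lhx1 was most like Lin7a (0.92) and Ppfia2 (0.91), both scaffold genes of the synapse. Dlx1 was most like Prkg1 (0.89), a cGMP-dependent protein kinase, Glra2 (0.89), a glycine receptor subunit, and Syt1 (0.87), a calcium sensor of vesicle release. Dlx2 was most like Apbb2 (0.93), Ppp1r17 (0.88) and Rasgrp1 (0.87), Six6 most like Tox3 (0.88), Six3 most like Auts2 (0.80), and Otp most like Nrn1 (0.90). Zfhx3 was most like Zfp763, Flrt3 and Map3k2 (all 0.93), values that fell to between 0.77 and 0.78 without the 2 arrays that stand apart. Dlx5 (0.76 with Ppargc1a) and Dlx6 (0.72 with Arhgap9) had lower highest values. Among the members the closest pairs were Dlx1 with Dlx2 (0.78) and Dlx2 with Dlx5 (0.71). Dlx1as, which overlaps Dlx1 by 3344 bases, was lower in ventral than in dorsal SCN by 0.99 on the log2 scale (difference -0.99, adjusted p = 0.00467). Its signal was low, with a mean of 2.76 in batch A, below the filter level of 4, and 4.20 in batch B. Whether the probe set of Dlx1as also reads Dlx1 RNA was not tested.

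Of 70 other homeobox genes listed, 45 were tested: 4 were higher and 0 lower in ventral than in central SCN, 2 higher and 0 lower in ventral than in dorsal SCN, and 4 higher and 5 lower in central than in dorsal SCN, with median differences of 0.11, 0.14 and 0.06. Over all genes 4.36% were higher in ventral than in central SCN and 2.63% higher in ventral than in dorsal SCN. In central against dorsal SCN 1.96% were higher and 5.14% lower. The POU factor Pou3f3 was higher in ventral than in central SCN (1.18 ± 0.142, adjusted p = 9.05e-06) and Pou2f2 higher in ventral than in dorsal SCN (1.71 ± 0.295, adjusted p = 0.000685). Vax1, a factor of the ventral forebrain, was higher in central than in dorsal SCN (0.56 ± 0.112, adjusted p = 0.00232), and Hopx lower (-1.16 ± 0.207, adjusted p = 0.000849). Among 19 tested cofactors of these protein families, Lmo3, a LIM-only protein, was lower in ventral than in dorsal SCN (-0.64 ± 0.166, adjusted p = 0.0254) and than in central SCN (-0.71 ± 0.166, adjusted p = 0.0109). Lmo2 was lower in ventral and in central than in dorsal SCN and Tle3, a Groucho corepressor, lower in ventral than in central SCN. Of the 19, 2 were lower in ventral than in dorsal, 2 in ventral than in central and 1 in central than in dorsal SCN. In each of these comparisons 0 were higher. The shares lower over all genes were 1.98%, 0.845% and 5.14%. Of 5 GABA neuron genes only Maf gave a call, higher in ventral than in central and in dorsal SCN. The shares higher over all genes were 4.36% and 2.63%. The differences of the transporter and synthesis genes did not pass. Of 18 SCN peptide and receptor genes, 4 were higher and 5 lower in ventral than in dorsal SCN, against 2.63% and 1.98% over all genes.

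The second comparison asked whether the pulse changed these genes 3.5 h later, with 4 light against 4 sham arrays in each region. No member passed the test in ventral, central or dorsal SCN. Over all genes the test called 0.719%, 0.385% and 0.178% in those regions. At an unadjusted p under 0.05 limma listed 1 of 9 members in ventral, 0 in central and 3 in dorsal SCN. The share of all genes under that unadjusted threshold was not counted, so these counts are not read as a result about the members. The median light minus sham difference of the members was -0.10, -0.25 and -0.17, against -0.03, -0.08 and -0.03 over all genes. Leaving out Otp, whose arrays spread widely, the 95% intervals of the other 8 members reached from -1.10 to 0.49 in ventral, from -1.0 to 0.27 in central and from -0.93 to 1.02 in dorsal SCN.

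**Figure D5:**
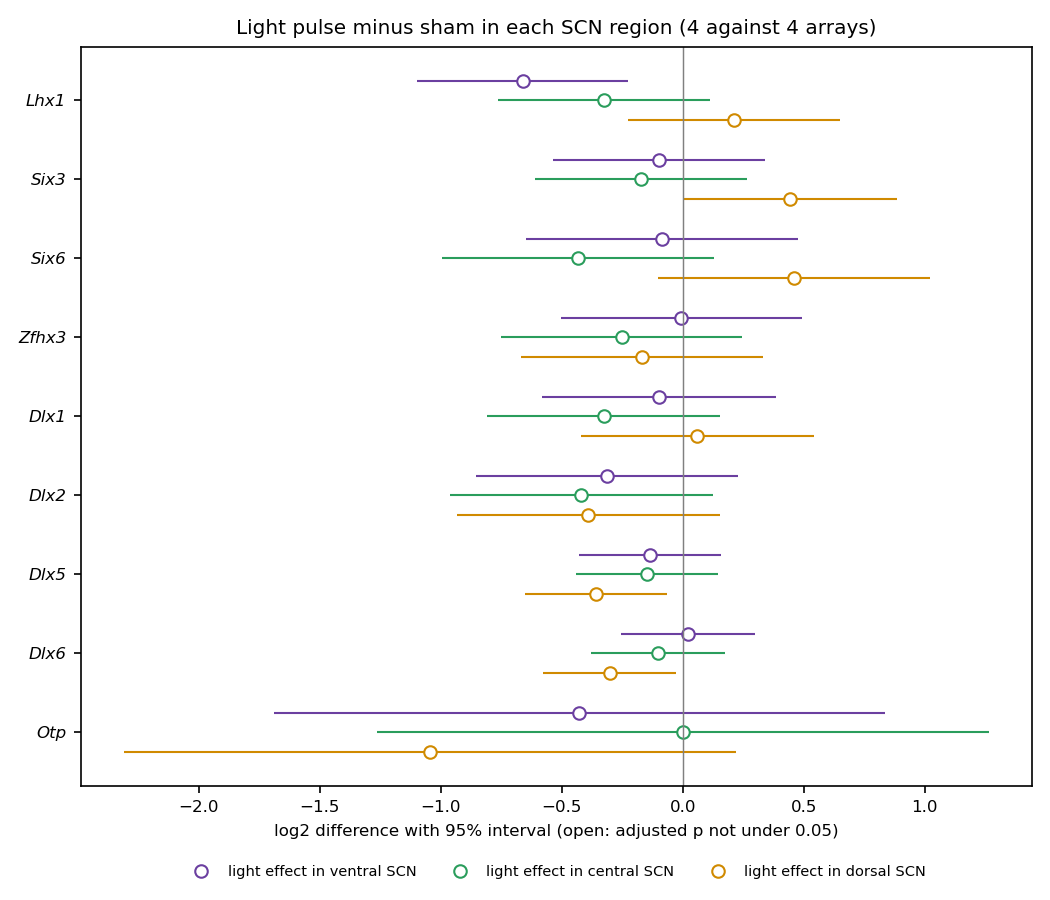
Log2 difference of light-pulsed minus sham arrays (x axis, with 95% interval) for the 9 genes tested (y axis) in ventral (purple), central (green) and dorsal SCN (orange), 4 against 4 arrays each. All points are open, since no adjusted p was under 0.05; Lhx1 in ventral SCN, at -0.66, lies farthest left apart from Otp in dorsal SCN.

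Lhx1 in ventral SCN came closest to the threshold in that region. It read 9.10, 9.17, 11.38 and 10.92 after light, against 9.83, 10.06, 11.63 and 11.70 after sham, and in each batch both light arrays were below both sham arrays. The difference was -0.66 ± 0.211, with an interval from -1.10 to -0.22, an unadjusted p of 0.0048 and an adjusted p of 0.27 in limma; it was -0.81 in batch A and -0.52 in batch B. With arrays weighted by their quality the adjusted p was 0.0181. That fit called 576 of all genes for light in ventral SCN, against 97 in the main fit. Over the other alternatives the Lhx1 difference did not pass. In central SCN the Lhx1 difference was -0.32 ± 0.211 and in dorsal SCN 0.21 ± 0.211, or 0.02 without light-pulsed dorsal replicate 4. The ventral minus dorsal difference of the Lhx1 light effect was -0.87 ± 0.298 with an adjusted p of 0.937, which did not pass either. With all arrays in the fit, the second Lhx1 probe set did not show that difference. Its light minus sham difference was -0.83 ± 0.549 in ventral and -0.92 ± 0.549 in dorsal SCN (adjusted p = 0.547). The ventral minus dorsal difference of these was 0.09 ± 0.776. That dorsal value includes the 4.75 on light-pulsed dorsal replicate 4, against a median of 8.42 on the batch B dorsal arrays. This probe set was not fitted without that array, so whether the 2 probe sets differ there was not tested. The light minus sham difference of Lhx1os in ventral SCN was -0.75 (adjusted p = 0.577).

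In dorsal SCN the 3 members with an unadjusted p under 0.05 were Six3 (0.45 ± 0.212, adjusted p = 0.491), Dlx5 (-0.36 ± 0.142, adjusted p = 0.448) and Dlx6 (-0.30 ± 0.133, adjusted p = 0.48). Six3 there read 8.35, 7.66, 9.88 and 10.72 after light, against 8.13, 7.62, 9.35 and 9.73 after sham, and the highest value was replicate 4. Without that array the Six3 difference was 0.21. Over all arrays, the Six3 probe set named above for its larger ventral minus dorsal difference had the opposite sign, -0.61 ± 0.493 (adjusted p = 0.636). That fit includes its low batch B dorsal value of 5.83, and this probe set was not fitted with an array left out. Dlx5 read 5.95, 5.96, 7.12 and 6.94 after light, against 6.13, 6.26, 7.53 and 7.49 after sham, with both light arrays below both sham arrays in each batch. Otp had the lowest difference of the members, -1.05 ± 0.609 in dorsal SCN (adjusted p = 0.524), with the groups apart in batch B (7.14 and 6.69 after light, against 9.02 and 8.31 after sham) and overlapping in batch A. Otp in central SCN went opposite ways in the batches, 1.35 in batch A and -1.35 in batch B. Dlx1, Dlx2, Six6 and Zfhx3 had differences between -0.43 and 0.46 in the 3 regions.

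The test of any difference in the light effect between regions called 0 of 9 members and 1 gene of all, 0.00741%. In limma Lhx1 alone among the members was under 0.05 before adjustment, and the share of all genes under it was not counted. Of the other homeobox genes 0 of 45 were called for light in any region, and likewise 0 of 19 cofactors. In the SCN peptide list Penk, the enkephalin precursor, was higher after light in ventral SCN (1.04 ± 0.212, adjusted p = 0.0173). Prok2, prokineticin 2, was higher in ventral and central SCN. These were 2 of 18 tested in ventral and 1 of 18 in central SCN, against 0.585% and 0.296% higher over all genes. They are named because they passed, so they do not measure how well a change in a member would be found.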

How the data were processed

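The deposited table holds log2 expression values per probe set made by the authors; GCRMA 2.32.0, MAS5 and R 3.0.2 are tools in the submitters' processing notes, which give no roles; the normalization of the batches is not stated there. Values were used as deposited. Probe sets took their gene from the platform annotation where it gave 1 symbol. The probe set with the highest mean stood for its gene, and genes with a value above 4 on at least 4 arrays were tested (13494 genes). limma 3.58.1 in R 4.3.3 fitted 6 group means and batch (17 residual and 4.70 prior degrees of freedom), with Benjamini-Hochberg adjustment over all tested genes and a threshold of 0.05. The ± values are SE. The number of arrays limits the precision. Members and gene lists were chosen with earlier results of these data known. Named genes were the members, at most the 4 smallest p per list and comparison, and the 3 most correlated genes per member; overlapping and adjoining transcripts, and all cell type markers and peptide genes quoted beside results, were added after their values were seen. On simulated data with 100 changed genes of each size among 13494, the light comparison in ventral SCN recovered 61% of log2 changes of 1 and 98% of 2, and ventral against dorsal 95% and 100%. The simulated noise was normal and independent between arrays, with no array standing apart, so these shares need not hold for the real arrays. Smaller changes were not simulated. Alternatives were another filter, scaling, probe set rule, array weights, single batches, sham arrays alone, a replicate block and each array left out; leaving out the arrays that stand apart was chosen after seeing the data.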

Additional observations from a re-analysis of the deposited data

Results flagged for a closer look

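Within groups of 4 arrays, with the batch mean removed, 4 of the 60 member and group combinations had 1 array far from the other 3, and chance flags about 1 in 20. On 3 occasions it was light-pulsed dorsal replicate 4, the array with the steepest Gapdh signal. Lhx2 read 4.11 and Six6 9.94 there, above the other 3, and Zfhx3 read 10.3, below them. The fourth was Dlx5 at 7.80 on sham central replicate 4, above the other 3. The cause was not tested.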

How the results depend on the processing

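Counts here are members passing the test. The main fit called 2 between ventral and dorsal, 5 between ventral and central and 3 between central and dorsal SCN, and 0 for light in every region. Without the batch term all 3 regional counts were 0. Batch A alone gave 1 for ventral against central SCN, and batch B alone 1 for each pair of regions; these fits hold 12 arrays. The probe set with the largest SD gave 3 and sham arrays alone 2 for ventral against central SCN. Array weights gave 5 for ventral against dorsal SCN, adding Lhx1, Six3 and Dlx5, and 6 for ventral against central SCN, adding Six6. They gave 5 for central against dorsal SCN, adding Six6 and Zfhx3, and 1 light call each in ventral (Lhx1) and dorsal SCN (Dlx6, adjusted p = 0.0468). Over all genes, array weights raised the calls from 622 to 1374, 702 to 1390 and 959 to 1762 for these region pairs in turn. Light calls over all genes in dorsal SCN rose from 24 to 353. The added member calls are therefore not read as specific to the members. Leaving out 1 array at a time gave 2 to 3, 3 to 5 and 3 to 4 calls for the regions in the order above, and 0 to 0 for light and for the interaction. Light calls over all genes in ventral SCN numbered 97, 576 with array weights and 307 without the 2 arrays that stand apart. Correlations of same-numbered arrays were -0.19 to 0.34 between light and sham (6 of 12 pairs over 0.1) and -0.21 to 0.56 between regions (17 of 24), against -0.52 to -0.04 and -0.58 to 0.11 with the other number of the batch, and in 11 of 12 and 22 of 24 pairs the same number was higher, a hint of pairing from the data and not the design; as not every pair was over 0.1, the numbers were not taken as pairs; a replicate block in place of batch gave 2, 5 and 3 regional and 0 light calls, and one with treatment gave 3, 5 and 3, adding Dlx5 between ventral and dorsal SCN (adjusted p = 0.0396). No difference that passed the test in either fit changed sign. Of 54 regional and light differences, 21 changed sign under 61 alternatives without passing in either fit, such as light in dorsal SCN for Lhx1 (-0.92), Six3 (-0.61) and Zfhx3 (0.56) with the probe set of the largest SD, and for Lhx1 (-0.07) and Zfhx3 (0.33) in batch A alone. The Dlx1 call between central and dorsal SCN had an adjusted p of 0.0507 in sham arrays alone. Median centring ended the Dlx5 call (adjusted p = 0.0603) and quantile scaling within batch the Otp call (adjusted p = 0.0955) between ventral and central SCN. The causes were not tested. Signal over background limits Lhx2, Dlx6 and Dlx1as.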
